A study of Mus musculus with 20 samples.

Results

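The 10 genes described here are Pou5f1, Nanog, Zfp42, Dppa5a, Dppa3, Sall4, Tfap2c, Sox2, Alpl and Prdm1, which belong to the pluripotency and specification programme of primordial germ cells. They were found by name or synonym on a 2-colour Agilent array, as 10 of 27670 gene names and 13 of 41174 gene probes (the array calls Dppa5a, Tfap2c and Alpl Dppa5, Tcfap2c and Akp2). Zfp42, Dppa5a and Sall4 have 2 probes each and the other genes have 1. All 13 probes passed the filter on dim probes and were tested among 35040 probes.

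Each array held RNA from 1 pair of XY gonads of a mouse embryo at day 11.5 (17 to 21 tail somites), dissected away from the mesonephros. The 4 groups were (B6x129S1)F1 and (129S1xB6)F1, the reciprocal hybrids of the inbred strains C57BL/6J and 129S1/SvImJ, and those strains themselves, with 5 gonad pairs each. The labels name no altered gene and no treatment in these groups. Single arrays are called by the letter and number of their embryo, as in H4. Gonad RNA was labelled with Cy5 on every array, and Cy3 carried one pool of XY gonads (4 pairs), XX gonads (3 pairs) and whole embryos (4 XY, 2 XX), all from matings of Sox9-ECFP mice on C57BL/6J with CD-1. The values below are log2 ratios of gonad over this pool after background correction and loess normalization, so 0 means the level of the pool. Because dyes were not swapped, the level of a gene over the pool includes any dye effect of its probe, whereas differences between groups do not involve a change of dye.

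Primordial germ cells of the mouse are set aside in the early embryo, when Prdm1 and Tfap2c repress the somatic programme, and they then migrate to the genital ridge. On the way they keep a network of pluripotency factors, with Pou5f1 (Oct4), Nanog and Sox2 at its core, that most other cells of the embryo have shut down. At this stage germ cells have reached the gonad and are multiplying among somatic cells that have not yet formed cords. A gonad is a mixture of both, so in these data fewer germ cells and less RNA per germ cell cannot be told apart.

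The probes of some members bear on how the values are read. The 2 probes of Zfp42 share 20 bases, given in capitals in the last 30 bases of one and the first 30 of the other, and so are not independent measurements of the gene. The pairs of probes of Dppa5a and of Sall4 share no run longer than 5 bases.
Zfp42 A_52_P629849, last 30 bases: ccttactataTGTGCTATTGAAGGGGATGG
Zfp42 A_51_P413376, first 30 bases: TGTGCTATTGAAGGGGATGGggacttttgc

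RefSeq promoter windows of assembly GRCm38.p6 were at hand for 6 of the 10 members (9 windows), and the 250 bases before each start were searched on both strands for ATGCAAA, the core of the octamer that POU factors such as the product of Pou5f1 bind, and for CATTGT, a SOX core. Zfp42, Nanog and Sox2 each held the octamer core, which is present in 4.12% of all 32851 windows of that length. Nanog held a SOX core 1 base beyond it, 1 of the 2 windows of Pou5f1 held a SOX core without an octamer core, and the SOX core is present in 10.7% of windows and both cores in 0.642%. Matches are in capitals, and they describe letters in a window, not binding. Nanog lies on the plus strand of chromosome 6, Sox2 on the plus strand of chromosome 3 and Zfp42 on the minus strand of chromosome 8.
Zfp42, chr8:43307010-43307259: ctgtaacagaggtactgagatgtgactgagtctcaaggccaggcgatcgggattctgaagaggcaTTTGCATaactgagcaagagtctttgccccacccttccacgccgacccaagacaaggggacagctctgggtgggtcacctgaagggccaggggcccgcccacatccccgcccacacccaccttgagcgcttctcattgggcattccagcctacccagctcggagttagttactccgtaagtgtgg
Nanog, chr6:122707239-122707488: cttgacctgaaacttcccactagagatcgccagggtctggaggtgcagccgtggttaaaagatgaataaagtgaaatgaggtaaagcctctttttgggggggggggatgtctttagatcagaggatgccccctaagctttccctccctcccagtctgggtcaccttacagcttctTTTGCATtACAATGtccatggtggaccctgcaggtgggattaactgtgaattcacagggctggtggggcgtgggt
Sox2, chr3:34649745-34649994: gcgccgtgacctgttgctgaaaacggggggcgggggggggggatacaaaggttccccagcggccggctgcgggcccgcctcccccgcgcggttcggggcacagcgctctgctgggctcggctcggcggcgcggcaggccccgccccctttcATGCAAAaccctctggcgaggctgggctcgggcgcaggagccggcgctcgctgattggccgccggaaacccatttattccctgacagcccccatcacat

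The other members are spread over the genome of the same assembly. Dppa3 lies near Nanog on chromosome 6, at 122626424 to 122630271, with Nanog at 122707489 to 122714633. Sall4 and Tfap2c lie on chromosome 2, at 168748332 to 168767201 and 172545678 to 172558622. Dppa5a lies on chromosome 9 (78367052 to 78368199), Sox2 on chromosome 3 (34649995 to 34652461), Alpl on chromosome 4 (137741731 to 137796384) and Prdm1 on chromosome 10 (44437174 to 44528558).

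In Cy5, 78.4% to 88.3% of gene probes per array were well above background, and the median net signal was 87.3 to 207 units. The mean of the gonadal somatic genes (Nr5a1, Wt1, Gata4 and 7 others) was 1.74 to 2.46 above the pool on every array. Among them Cbx2 and Lhx2 lay below the pool, with means over 20 arrays of -0.87 and -4.53. The arrays lay on 5 slides. Slide 1 held strain arrays alone and slide 5 F1 arrays alone, with a mean net signal of 95.5 on slide 5 against 149 to 187 on slides 1 to 4, whereas slides 2, 3 and 4 each held all 4 groups. Differences within slides are given beside the members that were called.

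Against the pool, 12 of the 13 probes were higher on average. Dppa5a and Dppa3, which code for small proteins restricted to pluripotent cells, germ cells and the early embryo, stood highest, with means over 20 arrays of 5.38 and 3.63 for the probes of Dppa5a and 4.90 for Dppa3. Zfp42 (Rex1), Pou5f1, Nanog and Alpl had means between 1.16 and 2.71, and the probes of Sall4, Tfap2c and Prdm1 lay between 0.50 and 0.82. Sox2, also a gene of neural tissue, stood alone below the pool at -2.52. Levels over the pool depend on what the pool holds, so this order is not an order of abundance in the gonad.

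The question set by the design for these genes is whether hybrid gonads differ from those of either inbred parent. Against C57BL/6J, all 13 member probes were higher on average in the F1 gonads, with a median log2 difference of 0.68 against 0.00 over all probes tested. Of the 13, 6 probes of 5 genes rose at an adjusted p under 0.05 (limma, Benjamini-Hochberg over all probes), namely both probes of Zfp42, 1 of Dppa5a, and those of Dppa3, Tfap2c and Sox2. Of all probes, 0.896% were called higher, 1.04% lower and 1.94% in either direction. In 5 of these 6 the F1 arrays lay wholly above the C57BL/6J arrays, as did those of 0.672% of all probes, and no member lay wholly below (0.581%). Within slides 2, 3 and 4, all 39 differences of the 13 probes were above 0. The same tally was 29 above and 10 below 0 for F1 minus 129S1/SvImJ, with 8 of 13 probes of one sign. Each of these slides held 2 F1 arrays, 1 C57BL/6J array and 1 129S1/SvImJ array, reused over all 13 probes. The 39 values are therefore not independent replicates, and the share of all probes with such signs was not computed.

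**Figure D1:**
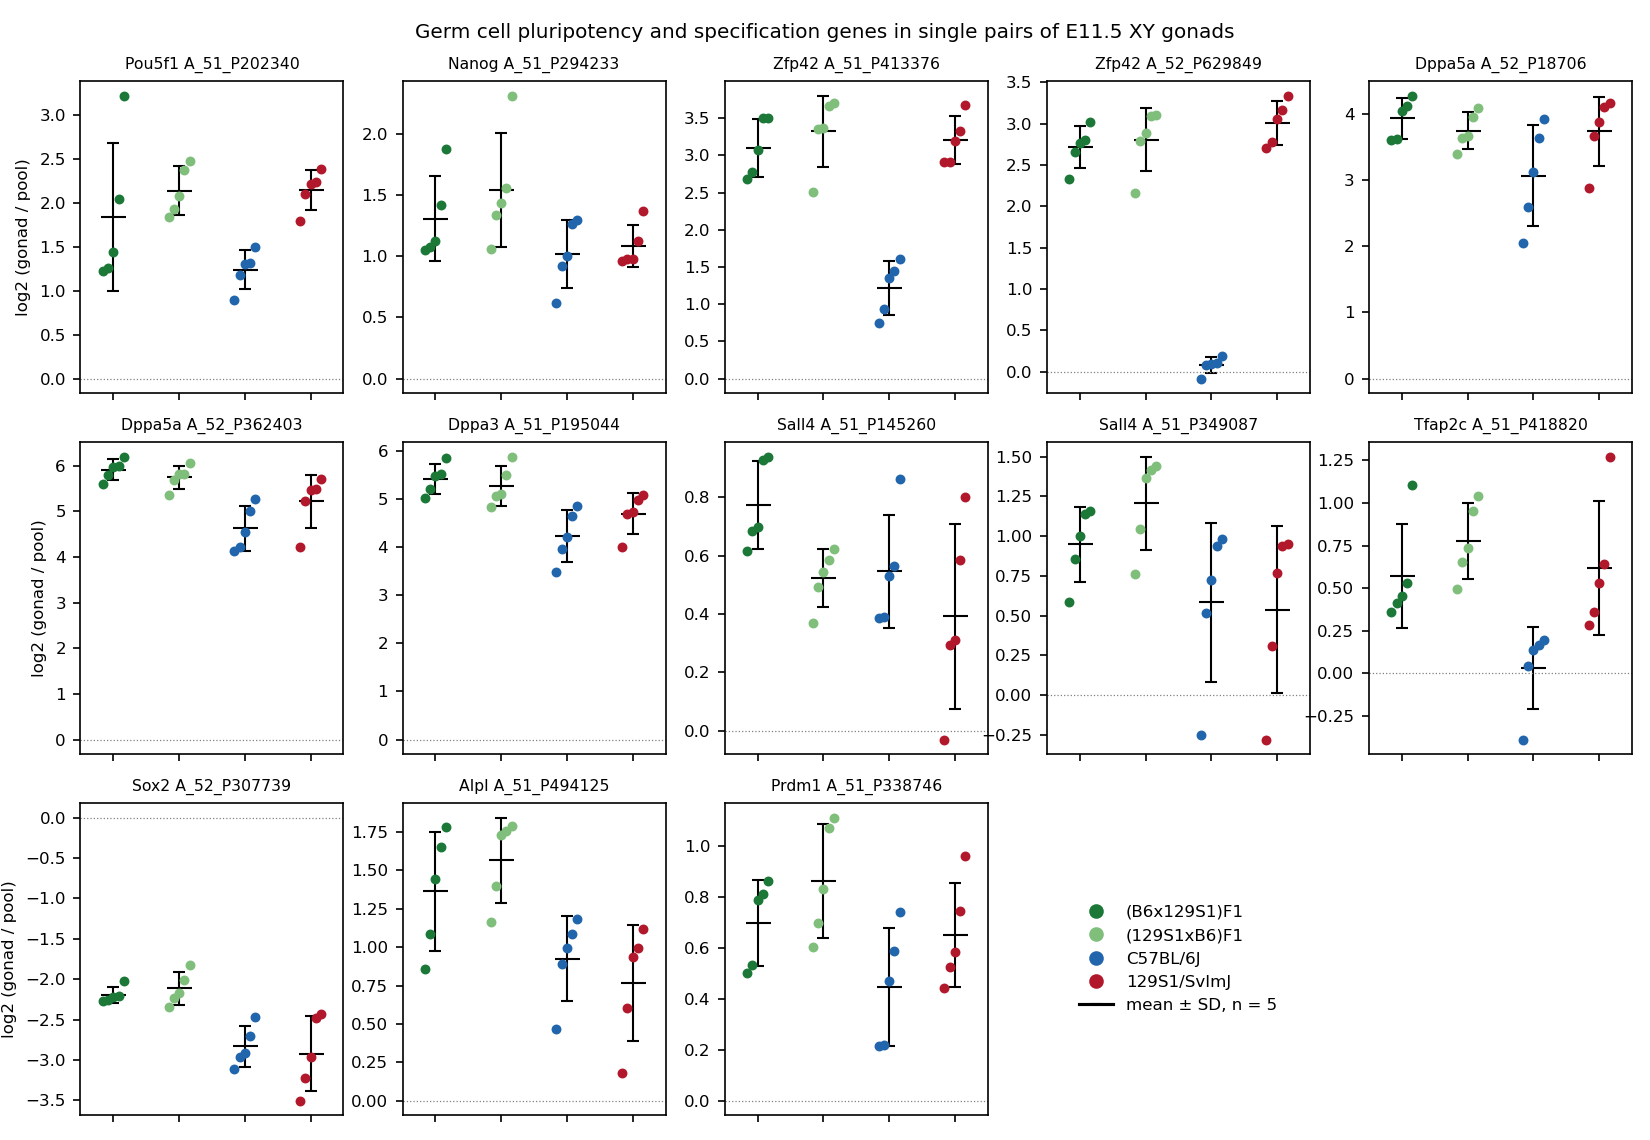
Log2 ratio of gonad over pool (vertical axes, a separate scale per probe) for the 13 member probes in (B6x129S1)F1, (129S1xB6)F1, C57BL/6J and 129S1/SvImJ gonads, from left to right. Points are single arrays drawn in order of value, bars are mean ± SD (n = 5), and the dotted line is the level of the pool. The C57BL/6J arrays lie apart from all others in both probes of Zfp42, and the F1 arrays lie above both strains in Sox2.

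Zfp42, a zinc finger gene used as a marker of the undifferentiated state, gave the largest difference. Probe A_52_P629849 read 2.33, 2.65, 2.77, 2.81 and 3.02 in (B6x129S1)F1 and 2.16, 2.79, 2.88, 3.09 and 3.10 in (129S1xB6)F1 gonads, against -0.08, 0.08, 0.10, 0.11 and 0.19 in C57BL/6J gonads. In 129S1/SvImJ gonads it read 2.71, 2.78, 3.06, 3.16 and 3.34. On this scale, with the offset, the C57BL/6J values were level with the pool and varied little among themselves. The lowest array of the other 3 groups read 2.16. In the processed signals of the scanner software the same C57BL/6J arrays ran from -0.53 to 0.55. Their SD there was 0.42, against 0.30 to 0.58 in the other groups.

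The F1 gonads exceeded C57BL/6J by 2.68 ± 0.14 (SE) in this probe, a 6.42-fold difference (adjusted p = 1.16e-09), which was rank 3 by p among the 35040 probes. C57BL/6J was lower than 129S1/SvImJ by a log2 difference of -2.93 ± 0.16, or 7.63-fold (adjusted p = 3.42e-10). Net Cy5 signal in this probe was 36.5 to 64.2 units in C57BL/6J and 600 to 988 units in 129S1/SvImJ gonads, and on 1 C57BL/6J array it was not well above background. The offset added in the background correction shrinks ratios of signals this low. With the processed signals of the scanner software, which add no such offset, the F1 minus C57BL/6J difference was 4.41 ± 0.22, or 21.3-fold, and the C57BL/6J minus 129S1/SvImJ difference was -4.24 ± 0.26, or 18.9-fold. Within slides these differences were 2.33 to 3.13 and -3.06 to -2.62.

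The other Zfp42 probe, A_51_P413376, also set C57BL/6J below the other 3 groups. It read 2.68, 2.78, 3.07, 3.50 and 3.50 in (B6x129S1)F1 and 2.51, 3.35, 3.38, 3.67 and 3.71 in (129S1xB6)F1 gonads, against 0.75, 0.93, 1.35, 1.45 and 1.60 in C57BL/6J gonads, and its 129S1/SvImJ values ran from 2.91 to 3.68. The F1 gonads were 3.99-fold above C57BL/6J (log2 difference 2.00 ± 0.20, adjusted p = 7.5e-06). C57BL/6J was 3.97-fold lower than 129S1/SvImJ (log2 difference -1.99 ± 0.23, adjusted p = 1.18e-05). In this probe every C57BL/6J array stood above the pool. Within slides the F1 minus C57BL/6J difference was 1.29 to 2.83 and the C57BL/6J minus 129S1/SvImJ difference -2.26 to -1.56.

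At Zfp42 the hybrids read closer to 129S1/SvImJ than to C57BL/6J. F1 minus 129S1/SvImJ was 0.01 in A_51_P413376 (95% interval -0.41 to 0.43) and -0.25 in A_52_P629849 (-0.54 to 0.04), with adjusted p of 0.992 and 0.484. On the log2 scale, the midpoint of the strain means was 2.21 in A_51_P413376, where the F1 mean was 3.21. It was 1.54 in A_52_P629849, where the F1 mean was 2.76. The midpoint of unlogged levels, which lies higher, was not computed. The distance from either midpoint was not tested. (B6x129S1)F1 minus (129S1xB6)F1 was -0.22 and -0.09, and neither was called.

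Zfp42 lies on chromosome 8 at 43295067 to 43307009 of GRCm38.p6. Of its 3 nearest protein-coding genes with a tested probe on each side, a choice made after the values of Zfp42 were seen, the closest were Triml1 at 114.6 kb and Adam26a at 261.3 kb, and their C57BL/6J minus 129S1/SvImJ differences were 0.18 and 0.00 (adjusted p = 0.483 and 0.998). At 1878 and 1897 kb, on the side of Triml1, Frg1 was lower in C57BL/6J (-1.35, adjusted p = 2.48e-06) and Asah1 was higher (0.62, adjusted p = 0.000775). On the side of Adam26a, Fat1 and Mtnr1a differed by 0.09 and -0.05 and were not called.

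**Figure D2:**
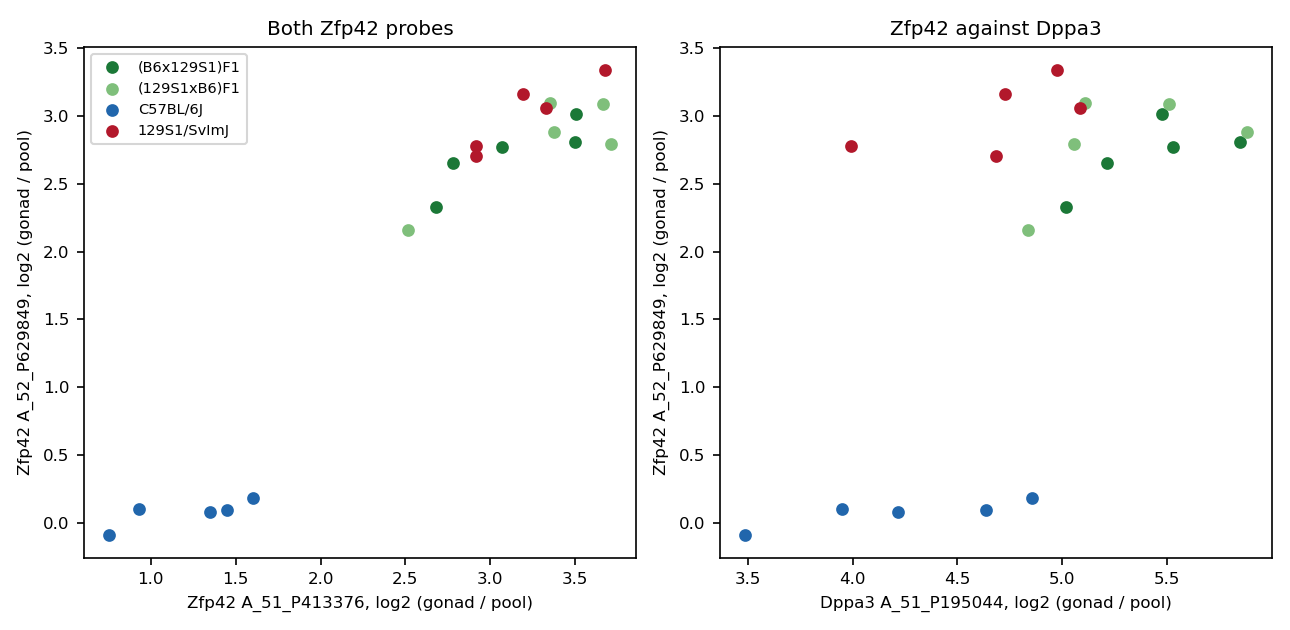
Log2 ratio over the pool of Zfp42 A_52_P629849 (vertical axes) against Zfp42 A_51_P413376 (left) and Dppa3 A_51_P195044 (right), 1 point per array and colour per group. The 5 C57BL/6J arrays sit near 0 for A_52_P629849 over their whole range of Dppa3, from 3.49 to 4.86, which overlaps that of 129S1/SvImJ, from 3.99 to 5.08. Their net Cy5 signal in A_52_P629849 was 36.5 to 64.2 units, so low that the offset leaves little room to vary. On the same 5 arrays A_51_P413376 rose in the order of Dppa3, from 0.75 on H4 to 1.60 on H1.

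Dppa5a and Dppa3 differed less and in another pattern. Dppa5a, an RNA-binding KH-domain gene of pluripotent cells, read in probe A_52_P362403 5.60, 5.80, 5.98, 5.99 and 6.20 in (B6x129S1)F1 and 5.36, 5.70, 5.82, 5.83 and 6.05 in (129S1xB6)F1 gonads, against 4.14, 4.22, 4.54, 5.01 and 5.26 in C57BL/6J gonads. The 129S1/SvImJ arrays read 4.22, 5.22, 5.47, 5.49 and 5.72 and overlapped both other sets. F1 exceeded C57BL/6J by 1.20 ± 0.21, or 2.29-fold (adjusted p = 0.00374), with 1.29 to 1.59 within slides 2 to 4. The other probe, A_52_P18706, gave 0.77 ± 0.26 and was not called (adjusted p = 0.173), although with slide as a block it was 1.07 (adjusted p = 0.0182). RefSeq lists pseudogene copies of Dppa5a, Dppa3, Zfp42, Nanog and Pou5f1, and whether the probes also bind their transcripts was not tested.

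Dppa3 (Stella), whose product protects the maternal genome from demethylation in the zygote and marks germ cells, read 5.02, 5.21, 5.47, 5.53 and 5.85 in (B6x129S1)F1 and 4.84, 5.06, 5.11, 5.51 and 5.88 in (129S1xB6)F1 gonads, against 3.49, 3.95, 4.22, 4.64 and 4.86 in C57BL/6J gonads. The difference was 1.12 ± 0.22, or 2.17-fold (adjusted p = 0.0085), and the groups overlapped by 1 F1 array. Within slides 2 to 4 it was 0.81 to 2.00. In the processed signals, however, it was 0.48 ± 0.18 and was not called (adjusted p = 0.243). Beside this, the pool's own net Cy3 signal at the Dppa3 probe had a median of 100.4 units on (B6x129S1)F1, 93.0 on (129S1xB6)F1, 65.4 on C57BL/6J and 86.8 on 129S1/SvImJ arrays, although the pool was the same. The part of that signal in the result was not tested. Median net Cy5 was 3695 and 3875 units in the F1 groups, 1094 units in C57BL/6J and 2888 units in 129S1/SvImJ gonads.

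Tfap2c, an AP-2 factor needed for germ cell specification, read 0.36, 0.41, 0.45, 0.53 and 1.11 in (B6x129S1)F1 and 0.50, 0.65, 0.74, 0.95 and 1.04 in (129S1xB6)F1 gonads, against -0.39, 0.04, 0.14, 0.17 and 0.19 in C57BL/6J gonads. All 10 F1 arrays lay above all C57BL/6J arrays. The difference was 0.64 ± 0.15, or 1.56-fold (adjusted p = 0.0323). Its call rests on a p near the threshold, since it was lost without any 1 of the (129S1xB6)F1 arrays L4 or M3 (adjusted p = 0.0552 and 0.0583) or the C57BL/6J arrays H1, H2, H3 or H4 (0.0604, 0.0837, 0.0625 and 0.0933), with slide as a block (0.51, adjusted p = 0.271), with the letter as a random block (0.64, 0.104) and with no background subtraction (0.46, 0.0741). Within slides 2 to 4 it was 0.38 to 0.90.

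Sox2, a SOX factor of the pluripotency core that is also a neural gene, read -2.27, -2.26, -2.22, -2.21 and -2.02 in (B6x129S1)F1 and -2.35, -2.23, -2.17, -2.00 and -1.82 in (129S1xB6)F1 gonads. It read -3.11, -2.97, -2.91, -2.71 and -2.47 in C57BL/6J and -3.50, -3.22, -2.97, -2.48 and -2.43 in 129S1/SvImJ gonads. All 10 F1 arrays lay above all 10 strain arrays, though not with spots flagged for uneven local background kept, as given below. F1 exceeded C57BL/6J by 0.68 ± 0.15 (1.60-fold, adjusted p = 0.0179) and 129S1/SvImJ by 0.77 ± 0.15 (1.70-fold, adjusted p = 0.00857). Without C57BL/6J array H1 or H3 the call against C57BL/6J was lost (adjusted p = 0.0717 and 0.0629). With slide as a block that difference was 0.48 (adjusted p = 0.0589), and within slides 2 to 4 it was 0.34 to 0.69. The difference from 129S1/SvImJ was 0.57 with slide as a block (adjusted p = 0.0298) and 0.35 to 0.69 within slides. The gonad signal itself was low, with group medians of 120.4 to 145.7 net units in the F1 groups, 84.6 in C57BL/6J and 113.4 in 129S1/SvImJ gonads. The list of 8 other neural genes, among them Sox1, Sox3, Pax6 and Tubb3, had a median F1 minus C57BL/6J difference of 0.02 and none was called or had an unadjusted p under 0.05.

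The other members were higher in F1 than in C57BL/6J without passing the test. Pou5f1 (chromosome 17, 35506032 to 35510777), the POU factor at the core of the network, read 1.23, 1.26, 1.45, 2.04 and 3.22 in (B6x129S1)F1 and 1.84, 1.93, 2.08, 2.38 and 2.48 in (129S1xB6)F1 gonads, against 0.90, 1.18, 1.30, 1.32 and 1.50 in C57BL/6J gonads. The (B6x129S1)F1 group was the most spread of the 4, with an SD of 0.84 against 0.22 to 0.28 in the others. The difference was 0.75 ± 0.24 (adjusted p = 0.145). With slide as a block it was 0.33 (adjusted p = 0.535), and within slides 2 to 4 it was 0.28 to 0.47. Within those slides F1 minus 129S1/SvImJ was -0.80 to -0.45 for Pou5f1. Nanog, a homeodomain factor, differed by 0.41 ± 0.17 (adjusted p = 0.357), Alpl, whose alkaline phosphatase is the classical stain for germ cells, by 0.54 ± 0.17 (0.14), and Prdm1, a repressor that starts germ cell specification, by 0.33 ± 0.11 (0.163).

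Sall4, a zinc finger factor that works with Pou5f1, gave 0.10 ± 0.11 in probe A_51_P145260 and 0.49 ± 0.21 in A_51_P349087, with adjusted p of 0.822 and 0.358. Its 2 probes did not vary together, with a Pearson r of -0.26 over 20 arrays after subtraction of the group means, against 0.83 for the probes of Zfp42 and 0.88 for those of Dppa5a. A_51_P145260 read 0.37 to 0.94 in the F1 gonads and -0.03 to 0.86 in the strains. The 2 probes therefore give no single account of Sall4.

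**Figure D3:**
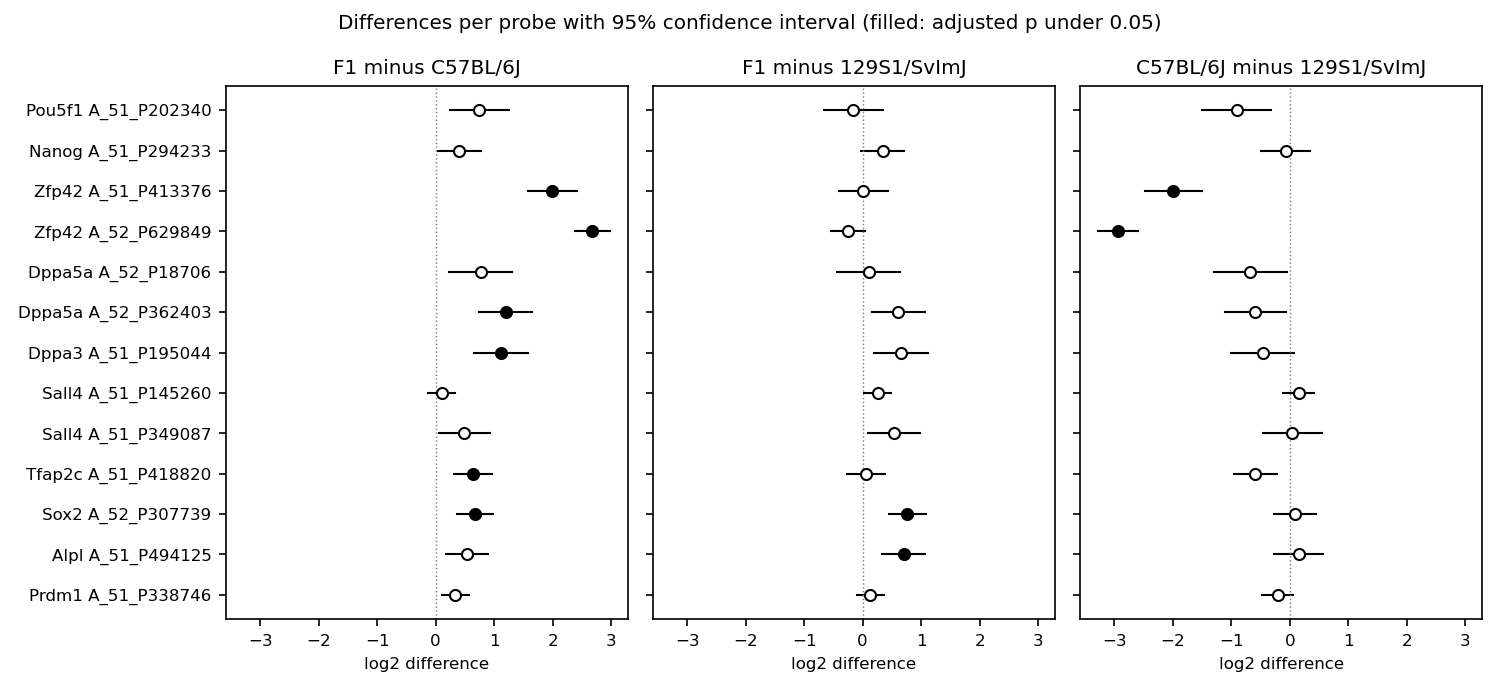
Log2 differences with 95% confidence intervals (lines) for the 13 member probes in 3 comparisons that share arrays. Filled points passed an adjusted p of 0.05. In F1 minus C57BL/6J all points lie to the right of 0, and in C57BL/6J minus 129S1/SvImJ only the 2 Zfp42 probes are filled, at -1.99 and -2.93.

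Against 129S1/SvImJ, the F1 gonads differed in fewer members. Of the 13 probes 11 were above 0, the median was 0.26, and 2 rose. Of all probes, 0.899% were called higher, 0.733% lower and 1.63% in either direction. The member probes that rose were those of Sox2, given above, and Alpl, by 0.70 ± 0.17 or 1.62-fold (adjusted p = 0.0452). Sox2 was the single member whose F1 arrays lay wholly above 129S1/SvImJ, as did those of 0.636% of all probes, and no member lay wholly below (0.378%). Alpl read 0.86, 1.09, 1.45, 1.66 and 1.78 in (B6x129S1)F1 and 1.16, 1.40, 1.73, 1.76 and 1.79 in (129S1xB6)F1 gonads, against 0.18, 0.61, 0.94, 1.00 and 1.12 in 129S1/SvImJ gonads. The groups overlapped, and the call was lost in 19 of the 32 alternative settings, among them slide as a block (0.53, adjusted p = 0.319). Those 19 settings include leaving out any 1 of the arrays C2, C3, E1, L4, M3, M6, H1, H3, K2, A3, D4 or G3. Without A3 the difference was 0.55 (adjusted p = 0.164). Within slides 2 to 4 the difference was 0.19 to 0.59. Dppa5a A_52_P362403 and Dppa3 were 0.61 and 0.65 above 129S1/SvImJ (adjusted p = 0.212 and 0.188). The comparisons of F1 with either strain share their F1 arrays.

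C57BL/6J gonads were lower than 129S1/SvImJ gonads in 9 of the 13 probes, with a median of -0.46. Within the 4 slides that held both strains, 40 differences were below and 12 above 0, with the same arrays reused over the 13 probes. The 2 probes of Zfp42 fell and no other member was called. Of all probes, 2.28% were called lower, 3.01% higher and 5.29% in either direction. In 4 probes the C57BL/6J arrays lay wholly below 129S1/SvImJ, as did those of 2.17% of all probes, the other 2 being Pou5f1 and Tfap2c, and no member lay wholly above (2.95%). Pou5f1 read 0.90 to 1.50 in C57BL/6J and 1.79 to 2.39 in 129S1/SvImJ gonads (log2 difference -0.91 ± 0.28, adjusted p = 0.0674). With slide as a block the same difference passed (adjusted p = 0.0136), and it was -1.07 to -0.81 within those slides. Tfap2c differed by -0.59 ± 0.18 (adjusted p = 0.0646), and passed without 129S1/SvImJ array A3 (adjusted p = 0.0435). Dppa5a A_52_P362403 differed by -0.59 (adjusted p = 0.239) and passed without array G3 (-0.84, adjusted p = 0.0166).

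No difference between the directions of the cross was detected. None of the 13 probes was called between (B6x129S1)F1 and (129S1xB6)F1 (limma, 0 also at an unadjusted p under 0.05), where 0.00571% of all probes were called, 0.00285% in each direction. No member's groups lay apart, against 0.297% of all probes with (B6x129S1)F1 wholly above and 0.194% wholly below. Differences ran from -0.30 for Pou5f1 to 0.25 for Sall4 A_51_P145260, with 95% intervals of -0.88 to 0.28 and -0.01 to 0.51.

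Relative to both parents, the mean of the F1 gonads exceeded the higher strain mean in 11 of the 13 probes, the exceptions being Pou5f1 and Zfp42 A_52_P629849, as it did in 29.8% of all probes. The number of F1 arrays above every strain array was 10 of 10 for Sox2, which was the 1 probe of 34907 with a value on every array (0.00286%) where this was so. It was 7 for Dppa5a A_52_P362403, for Dppa3, for Sall4 A_51_P349087 and for Alpl, and 5 for Nanog. For Tfap2c it was 0, with array G3 of 129S1/SvImJ at 1.27, and 5 without that array. With spots flagged for uneven local background kept, Sox2 read -1.41 on 129S1/SvImJ array A4, above the highest F1 value of -1.82. The full separation of Sox2 was then lost. In the processed signals its F1 arrays read -2.72 or higher and its strain arrays -2.82 or lower.

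The members did not vary as 1 block within the groups. After subtraction of the group means, Dppa3 had r of 0.82 and 0.83 with the probes of Dppa5a and 0.72 with Zfp42 A_51_P413376, and Prdm1 had r of 0.66 and 0.67 with Zfp42 and 0.58 with Dppa3, each over 20 arrays that share slides and signal strength. Tfap2c, Alpl and Sox2 stood outside this set, and 28 of the 78 pairs were below 0, with a median r of 0.18. One C57BL/6J array, H4, read lowest of all 20 in 6 of the 13 probes. The cause was not tested, and leaving H4 out ended the call of Tfap2c alone among the 6 calls against C57BL/6J.

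**Figure D4:**
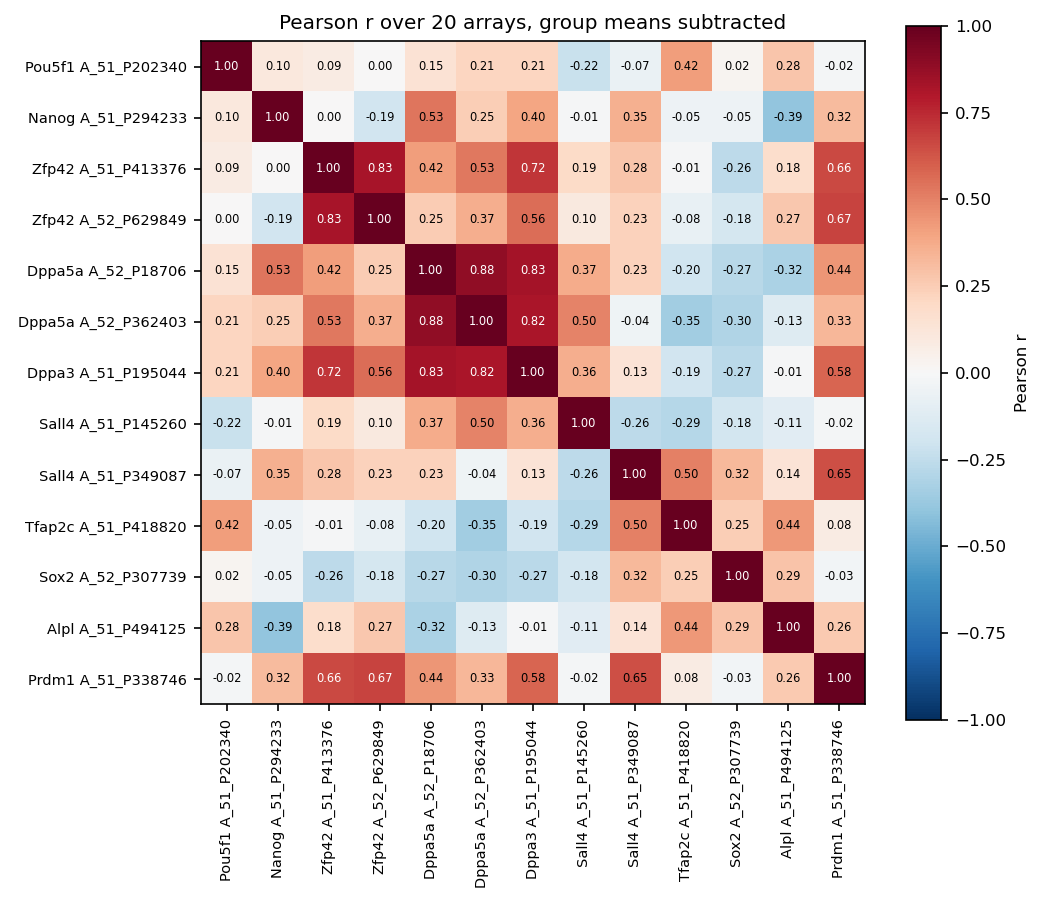
Pearson r between the 13 member probes over 20 arrays after the group mean was subtracted from each array (colour and number). The pair of Zfp42 probes has r of 0.83, the pair of Dppa5a probes 0.88 and Dppa3 with Dppa5a A_52_P362403 0.82, and Pou5f1 has no r above 0.42 with any member. Array E1 weighs heavily in each r of Pou5f1.

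By the same measure, the genes most like Pou5f1 among all probes were no germ cell genes by any list used here. They were Cep128, Acsbg3, Lss, Farsa, Yipf2, Ndufv3, Prox1, Lipg, B3gntl1 and the transcript ENSMUST00000003906, with r of 0.82 to 0.77 over 20 arrays, and the member most like it, Tfap2c, had r of 0.42 and rank 2180. Pou5f1 read 3.22 on (B6x129S1)F1 array E1 against a group mean of 1.84, so that array weighs heavily in each r of Pou5f1. The ranking without E1 was not computed. Dppa3 was added as a second point of comparison after its values were seen. The genes most like it were Prrc1 (r = 0.96), Tdrd12 (0.93), Rhox2a (0.90), Rbmxl2 (0.88), Fbxo15 (0.87) and Mageb16 (0.87), of which Tdrd12 is a germline gene of the piRNA pathway and Fbxo15 a known target of the pluripotency network.

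The same arrays held other genes of these programmes, listed by function. Beside the counts of these lists, 0.896% of all probes were called higher and 1.04% lower in F1 minus C57BL/6J. In F1 minus 129S1/SvImJ these shares were 0.899% and 0.733%. Prdm14, Fgf4, Trim71 and Gcna of these lists were not analysed here. Of 17 tested genes of pluripotency and specification that are no members, 2 rose in F1 against C57BL/6J and none fell, with 16 above 0 and a median of 0.33, against 0.00 over all probes. Among them was Gdf3, a TGF-beta ligand of pluripotent cells (0.50 ± 0.11, adjusted p = 0.0143). Dppa2 and Dppa4, a pair of chromatin factors of pluripotent cells, differed by 0.33 and 0.70 without passing (adjusted p = 0.054 and 0.0628). None of the 17 was called against 129S1/SvImJ (lowest adjusted p = 0.091, 6 at an unadjusted p under 0.05).

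Of 19 tested genes of germ cell identity, 4 rose in F1 against C57BL/6J and none fell, against 0.896% and 1.04% of all probes. Of the 19 genes, 14 were above and 5 below 0, with a median of 0.28. The lowest was Ifitm3 at -0.76 (adjusted p = 0.258), and Cxcr4, the receptor that guides germ cell migration, was at -0.20 (adjusted p = 0.392). The 4 that rose were Ddx4 (Vasa), an RNA helicase of germ cells (1.08 ± 0.25, adjusted p = 0.0236), Mael, a piRNA factor (0.81 ± 0.13, 0.00151), Tex101, a surface protein of germ cells (0.68 ± 0.11, 0.0012), and Sycp3, of the synaptonemal complex (0.28 ± 0.06, 0.00728). Against 129S1/SvImJ only Ddx4 rose (1.22, adjusted p = 0.0116). Between the strains, Tex101, Sycp3 and Dazl were lower in C57BL/6J (-0.54, -0.32 and -0.90; adjusted p = 0.0102, 0.00313 and 0.0423), whereas Ddx4 differed by 0.14 (0.913).

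None of the 9 tested genes for signals that act on germ cells was called higher in F1 against C57BL/6J, with 6 above and 3 below 0 and a median of 0.06. Igf1 and Bmp2 fell in F1 against C57BL/6J (-0.52 ± 0.13 and -0.62 ± 0.16; adjusted p = 0.0343 and 0.049), and Kitl, the ligand that keeps germ cells alive, differed by -0.35 (adjusted p = 0.644). Of the 42 genes that mark gonadal somatic, neural, endothelial, erythroid cells and macrophages, none was called in F1 against either strain by limma. All 8 endothelial genes were below 0 in F1 minus 129S1/SvImJ (median -0.22), 2 of them at an unadjusted p under 0.05, with Emcn at -0.45 (adjusted p = 0.0756). Among the 10 somatic genes, 3 had an unadjusted p under 0.05 against C57BL/6J, all below 0, with Lhx9, Emx2 and Gata4 at -0.51, -0.64 and -0.63 (adjusted p = 0.138, 0.151 and 0.328), and the list's mean per array was 1.79 to 2.30 in the F1 groups and 2.09 to 2.46 in C57BL/6J gonads. Of the 8 mesonephros genes Lhx1 rose against C57BL/6J (0.48, adjusted p = 0.0137), while Pax2 was near the pool in all groups. The part of these markers in the germ cell results was not tested.

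**Figure D5:**
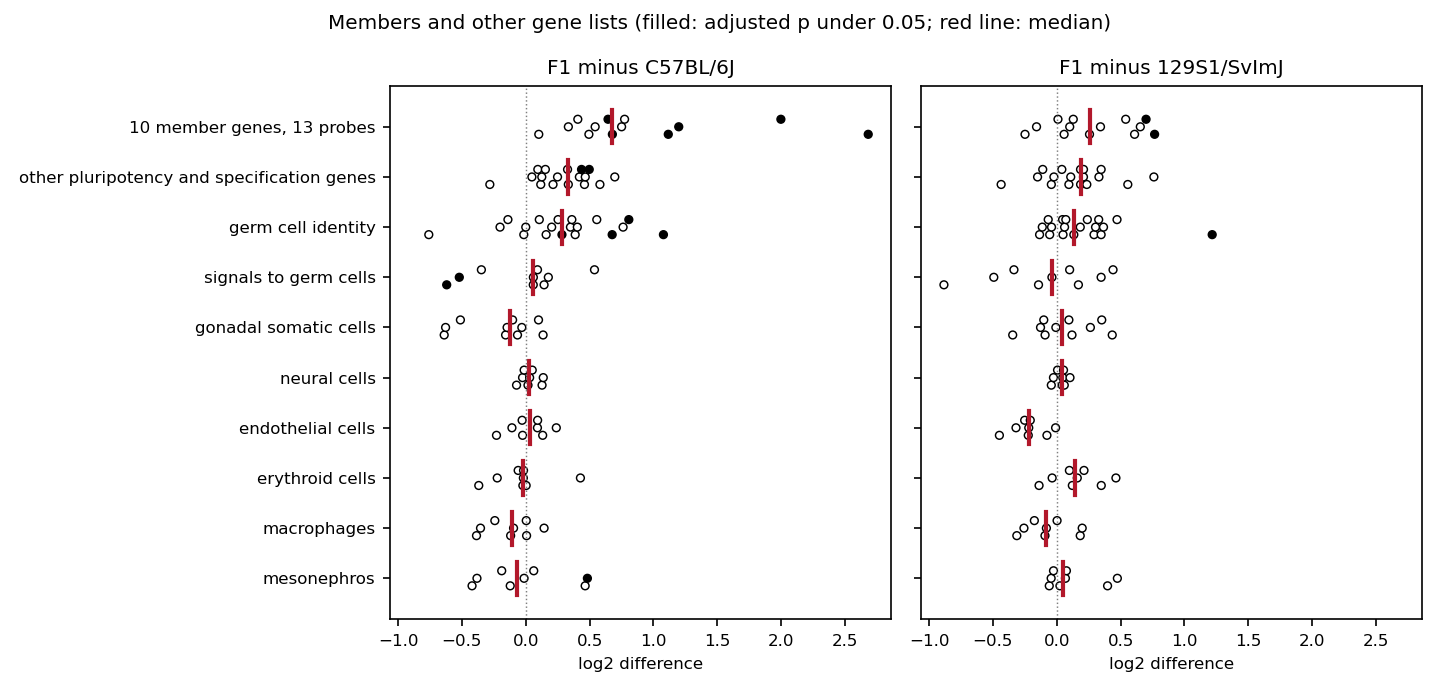
Log2 differences of the 13 member probes and of the tested genes of 9 other lists (rows) in F1 minus C57BL/6J (left) and F1 minus 129S1/SvImJ (right), 1 point per probe or gene. Filled points passed an adjusted p of 0.05 and red lines are medians, 0.68 and 0.26 for the members.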

How the data were processed

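The members and gene lists were chosen with earlier results of these data known. Values were intensity per spot and channel from scanner files that the authors deposited, written by Feature Extraction 9.1.3.1 per the file headers. The authors also deposited processed intensity columns (spatial detrending, LOWESS) and a series-wide table of log2 values, Cy5 over Cy3, whose normalization is not given in the sources used here. Both served as alternatives. Flags of the files (well above background, outlier) were used as filters.

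Mean signals with the median local background were corrected by normexp (offset 50) and loess in limma 3.58.1 (R 4.3.3), control spots at weight 0. Spots flagged for uneven local background, at most 17 per array, were left out first, because on array A4 (129S1/SvImJ) a net signal of -28468 in such a spot distorted the correction. This step was chosen after the data were seen. Dppa3 on A4 read 2.77 with those spots kept, 4.73 without them and 5.86 in the processed signals.

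A probe was tested if its Cy5 signal was well above background on 4 or more of the 5 arrays of any group (35040 of 41174). One linear model held all 20 arrays and 4 groups, with eBayes (16 residual degrees of freedom), and F1 was the mean of both F1 groups. Called means an adjusted p under 0.05. Errors of differences are SE, of groups SD. Each array is 1 embryo, and the number of arrays limits the precision. The letter in the sample names may mark litters, which the labels do not state. In simulated data of 34907 probes for F1 minus C57BL/6J, 95 of 100 changes of 1 and 54 of 100 of 0.5 were recovered, with 11 of the unchanged probes called. The simulated noise was independent between arrays, with no effect of slide or letter. These figures therefore do not cover recovery or false calls where such effects are present. Named genes were all member probes, the 10 genes most like Pou5f1 and up to 4 genes per list with the smallest p. Dazl, Kitl, Pax2, Ifitm3, Cxcr4, Emcn, Cbx2, Lhx2 and the neighbours of Zfp42 were named after their values were seen. A list's gene is represented by its brightest tested probe. The values of 1 listed gene are not reported here.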

Additional observations from a re-analysis of the deposited data

Results flagged for a closer look

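Among the 52 sets of 5 arrays (13 probes in 4 groups), 3 held an array far from its group, measured by its gap to the nearest other array over the whole range. About 1 in 20 such sets is picked by chance. Tfap2c read 1.11 on (B6x129S1)F1 array E1, where the next was 0.53, and -0.39 on C57BL/6J array H4, where the next was 0.04. Sox2 read -2.02 on (B6x129S1)F1 array C4, where the next was -2.21.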

How the results depend on the processing

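Across 32 other settings, 1 of them (spots with uneven local background kept) chosen after the data were seen, none reversed a called difference. Both Zfp42 probes were called in F1 minus C57BL/6J and in C57BL/6J minus 129S1/SvImJ under every setting that held them, with F1 minus C57BL/6J differences of 1.23 to 2.40 and 1.12 to 4.41 and strain differences of -2.30 to -1.31 and -4.26 to -1.43. A_52_P629849 drops out of the fits on probes well above background on all arrays and on the brightest probe per gene. The count of 6 member probes called in F1 minus C57BL/6J was 4 to 6 in all settings, and 4 to 6 when each array was left out in turn. The count of 2 in F1 minus 129S1/SvImJ was 1 in the processed signals, the deposited value table, without background subtraction, with no filter on dim probes, slide as a block, the letter as a random block, only the arrays compared, or the uneven spots kept, and 1 to 2 with an array left out. The count of 2 in C57BL/6J minus 129S1/SvImJ was 1 for probes well above background on all arrays and for the brightest probe per gene, and 2 to 4 with an array left out. It was 4 without (B6x129S1)F1 array E1, when Pou5f1 (adjusted p = 0.00185) and Tfap2c (0.0372) were called. The reciprocal count was 0 throughout. Dppa3 lost its call in F1 minus C57BL/6J in the processed signals (0.48), the deposited table (0.53) and with the uneven spots kept (1.22, adjusted p = 0.0533). Sox2 lost it with no background subtraction (0.36, adjusted p = 0.0758), with the letter as a random block (0.65, 0.0992) and with the uneven spots kept (0.60, 0.313), which also ended its call against 129S1/SvImJ (adjusted p = 0.302). Over all probes, calls ran from 367 to 780 in F1 minus C57BL/6J (679 as reported), 306 to 703 (572) in F1 minus 129S1/SvImJ and 1257 to 2223 (1855) between the strains. The causes were not tested. No paired analysis was possible because the groups share no replicate numbers in the labels, so no pairing by number was fitted. Slides that hold several groups were used instead, as a block and for differences within slides. Low signal limits Sox2 (gonad), Dppa3 (pool) and Zfp42 A_52_P629849 (pool in all groups, and gonad in C57BL/6J). Median net Cy3 of the pool was 60.9 units for Zfp42 A_52_P629849 and 88.0 for Dppa3. It was 98.4 for Zfp42 A_51_P413376, 108 for Prdm1 and 109 for Pou5f1.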
